A study of Mus musculus with 21 samples.

Results

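Transcripts of 10 genes for the synthesis and phosphorylation of phosphatidylinositol (PI) were followed in 21 mouse livers: Cds1, Cds2, Tamm41, Cdipt, Ddhd1, Pi4ka, Pi4k2a, Pi4k2b, Pip5k1a and Pip4k2a. They were taken by symbol from the 55418 symbols of the count tables. All 10 passed the filter on low counts, as 10 of 15677 genes tested. Whole-liver RNA was sequenced from wild-type mice (WT) and from mice with Mboat7 deleted in hepatocytes (KO). Mboat7 is the acyltransferase that loads arachidonate onto lysophosphatidylinositol. The mice were fed chow and were 10 weeks old (6 WT and 7 KO), or were fed for 6 weeks a high-fat diet that is low in methionine and lacks choline (HFMCD), starting at 6 to 8 weeks of age (4 WT and 4 KO). Each library carries its own animal number. The driver of the deletion, the strain and the sex are not given in the sources used here. Diet went together with age and with the range of animal numbers, so these cannot be told apart.

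Background on the pathway helps to order the genes. Phosphatidic acid is activated with CTP to CDP-diacylglycerol, which PI synthase joins to inositol in the endoplasmic reticulum. PI 4-kinases then make PI 4-phosphate on the Golgi, endosomes and plasma membrane, and PIP kinases make PI 4,5-bisphosphate from PI monophosphates. Liver PI is rich in arachidonate, and MBOAT7 restores that acyl chain after a phospholipase has removed one. The question put to the 10 genes was whether their transcripts moved when this acyltransferase was deleted, when the diet was changed, or with both.

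The promoters of the genes with the largest diet differences, and of Pi4k2a as the paralog of Pi4k2b, are shown first. Of the 10 genes, 8 had a window in the RefSeq table (GRCm38.p6); Cdipt and Tamm41 had none. Each line gives the 250 bases upstream of the start, 5′ to 3′ on the gene's strand. Capitals mark matches, on both strands, to any of 5 motifs, none of which is contained in another. The GC box was searched as GGGCGG. For the CCAAT box the letters are in its name, and for the TATA box they were TATAAA. The AP-1 motif was taken as TGACTCA. The core of ETS factors was taken as GGAAGT.
Pip4k2a, chr2:18998122-18998371, minus strand: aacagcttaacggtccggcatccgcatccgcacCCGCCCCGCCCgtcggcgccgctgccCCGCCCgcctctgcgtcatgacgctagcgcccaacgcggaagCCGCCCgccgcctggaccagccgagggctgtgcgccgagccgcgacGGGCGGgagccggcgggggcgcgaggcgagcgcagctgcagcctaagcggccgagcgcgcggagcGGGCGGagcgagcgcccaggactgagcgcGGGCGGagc
Cds1, chr5:101764880-101765129, plus strand: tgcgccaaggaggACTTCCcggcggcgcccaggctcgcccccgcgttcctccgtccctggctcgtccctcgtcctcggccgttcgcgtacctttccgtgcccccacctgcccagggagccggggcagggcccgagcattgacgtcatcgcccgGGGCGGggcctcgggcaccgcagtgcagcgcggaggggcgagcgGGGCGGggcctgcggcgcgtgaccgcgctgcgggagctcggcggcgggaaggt
Pi4k2b, chr5:52741324-52741573, plus strand: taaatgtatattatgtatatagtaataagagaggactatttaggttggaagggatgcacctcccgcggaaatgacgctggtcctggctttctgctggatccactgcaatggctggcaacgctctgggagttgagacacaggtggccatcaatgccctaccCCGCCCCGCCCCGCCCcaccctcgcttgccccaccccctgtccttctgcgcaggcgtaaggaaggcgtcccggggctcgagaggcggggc
Pi4k2a, chr19:42090185-42090434, plus strand: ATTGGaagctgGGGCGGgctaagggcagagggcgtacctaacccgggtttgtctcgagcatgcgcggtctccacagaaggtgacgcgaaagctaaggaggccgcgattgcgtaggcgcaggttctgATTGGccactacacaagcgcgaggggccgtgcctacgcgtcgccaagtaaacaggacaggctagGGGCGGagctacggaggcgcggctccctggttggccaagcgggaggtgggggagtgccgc
The Pip4k2a window had 7 GC boxes and a GC content of 78.8%. The Cds1 window had 2 GC boxes, 1 ETS core and 77.6% GC. Both windows, like those of Pi4k2b and Pi4k2a, lay above the median GC content of 52.4% over 32851 promoter windows of the same length. The Pi4k2b window had 3 GC boxes in 1 run, in which neighbouring matches share a base, no CCAAT box and 59.2% GC. The Pi4k2a window had 2 GC boxes, 2 CCAAT boxes and 65.2% GC. A GC box was present in 32.7% of the 32851 windows, a CCAAT box in 33.8%, a TATA box in 12.4%, an AP-1 match in 4.46% and an ETS core in 19.7%. These matches describe the sequence and are not binding sites.

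The libraries held 17502231 to 25822972 counts. Mboat7 went with the labels. On chow it ran from 33.0 to 39.7 CPM (counts relative to the scaled library total; median 36.1) in WT and from 18.8 to 24.1 (median 21.8) in KO. On HFMCD the WT livers had 34.7, 35.6, 36.6 and 38.1 CPM, and the KO livers had 20.8, 15.8, 18.8 and 20.2. No KO liver reached a WT liver of the same diet. Exons of Mboat7 share 277 bases with Tsen34 on the other strand, and without a strand setting their reads cannot be told apart there. Hepatocyte markers summed to 84195 to 133342 CPM over the 21 livers, and none was at 0 in a group. In 4 chow livers (WT replicates 3 and 5, KO replicates 1 and 7) gallbladder and gland markers summed to 31.3 to 125 CPM, and KO chow replicate 7 also had 1362 CPM of striated muscle markers.

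Deletion of Mboat7 moved none of the 10 transcripts past the threshold on either diet. A gene was called at an adjusted p (edgeR quasi-likelihood test, Benjamini-Hochberg over all genes tested) under 0.05. On chow, 0 of 10 were called, against 2.17% of all genes tested. At an unadjusted p under 0.05 there was 1 of the 10, Ddhd1, and 2806 of the 15677 genes tested. DESeq2 and limma-voom called 0 of the 10 each, and 705 and 113 of all genes. The livers of the genotypes overlapped for all 10, where 0.657% of all genes tested had no overlap. Log2 fold changes of KO against WT ran from -0.09 (Cdipt) to 0.21 (Ddhd1). On HFMCD, 0 of 10 were called, against 0.319% of all genes tested, with 0 at an unadjusted p under 0.05 and 0 by DESeq2 and by limma-voom. There the log2 fold changes ran from -0.08 (Cdipt) to 0.16 (Tamm41). A p that misses the threshold does not show equal levels, so the intervals matter: for Cdipt the 95% interval of the KO to WT ratio was 0.859 to 1.03 on chow and 0.843 to 1.07 on HFMCD. The widest were those of Cds1, with 0.724 to 1.47 on chow and 0.727 to 1.60 on HFMCD. Cholangiocyte markers did move with the genotype on HFMCD, where 5 of 8 were called higher in KO (summed 206 to 248 CPM in the WT livers and 557 to 807 in the KO livers); their part in the values of the 10 genes was not tested.

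The difference of the KO effect between diets was also tested for each gene. None of the 10 passed (smallest adjusted p 0.662, edgeR), against 0% of all genes tested. At an unadjusted p under 0.05 there were 0 of the 10 and 1581 of all genes. DESeq2 called 97 genes and limma-voom 10 for that difference, with 0 of the 10 genes in either.

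The diet went with larger differences. In WT, 6 of the 10 were called (3 higher and 3 lower on HFMCD), against 62.5% of all genes tested (29% higher and 33.6% lower). In KO, 8 of the 10 were called (4 higher and 4 lower), against 69.7% of all genes (33.7% higher and 36% lower). The livers did not overlap between diets for 4 of the 10 in WT (47.2% of all genes tested) and for 7 of the 10 in KO (53%). These shares lie near the background or on either side of it, so the counts say nothing particular to the pathway. The median absolute log2 fold change was 0.29 in WT and 0.32 in KO for the 10 genes, and 0.54 and 0.62 over all genes tested. Pip4k2a and Pi4k2b stood at the ends of the range in both genotypes, with Cds1 next to Pip4k2a.

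**Figure D1:**
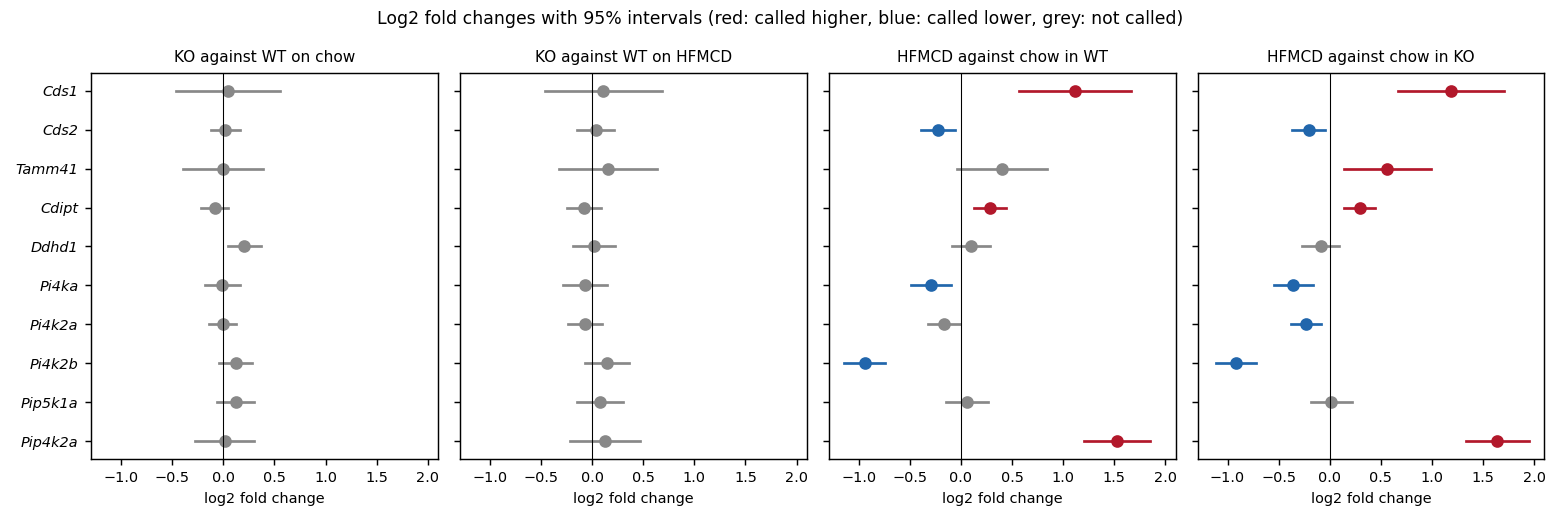
Log2 fold change (points) with its 95% interval (lines) for each of the 10 genes in 4 comparisons; red and blue mark genes called higher and lower, grey those not called. The 2 panels of KO against WT show no called gene, and in both diet panels Pip4k2a and Cds1 lie above 1.0 while Pi4k2b lies near -0.9.

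The first step belongs to the CDP-diacylglycerol synthases of the endoplasmic reticulum, Cds1 (chr5:101765130-101823858, plus strand) and Cds2 (chr2:132263148-132312050, plus strand). Cds1 was the scarce one. It had 10 to 62 reads per liver. Chow livers held 0.491 to 1.32 CPM (median 0.855) when WT and 0.548 to 1.25 CPM (median 0.909) when KO. The HFMCD livers had 2.14, 2.42, 1.45 and 1.62 CPM in the WT group and 1.87, 1.99, 2.21 and 2.19 CPM in the KO group. Every HFMCD liver lay above every chow liver. Cds1 rose by a log2 fold change of 1.12 (SE 0.26, adjusted p 8.09e-04) in WT and of 1.19 (SE 0.25, adjusted p 2.23e-04) in KO.

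Cds2, the abundant enzyme, had small differences in the other direction. WT livers on chow held 98.2 to 127 CPM (median 112), and KO livers 104.3 to 123 CPM (median 113). With HFMCD, values were 91.8, 93.5, 92.9 and 109 CPM in the WT livers and 102.8, 101.3, 95.8 and 97.0 CPM in the KO livers. The KO livers did not overlap between diets, while in WT replicate 4 on HFMCD reached into the chow range. The log2 fold change was -0.22 (SE 0.08, adjusted p 0.0189) in WT and -0.21 (SE 0.08, adjusted p 0.0223) in KO. Several settings ended these calls, while RLE scaling kept both. With upper-quartile scaling the adjusted p was 0.0891 in WT and 0.123 in KO, and without a low-count filter it was 0.135 and 0.153. The WT call was also lost with the compared groups only (adjusted p 0.0898) and without the 4 chow livers with gallbladder markers (log2 fold change -0.14, adjusted p 0.144), and the KO call without KO chow replicates 1 and 7 (adjusted p 0.0502). Leaving out WT HFMCD replicate 1, 2 or 3, or WT chow replicate 5 or 6, also ended the WT call (log2 fold change -0.14 and adjusted p 0.118 without WT chow replicate 5), and so did KO HFMCD replicate 3 or 4 or KO chow replicate 2 for the KO call.

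The balance of the pair was compared within each liver as the log2 ratio of Cds2 to Cds1 reads, which no library scaling can change (0.5 was added to each count, and transcript lengths stay in the ratio). It averaged 7.06 ± 0.71 (SD, n = 6) in WT and 6.97 ± 0.33 (SD, n = 7) in KO on chow. On HFMCD it averaged 5.68 ± 0.40 (SD, n = 4) in WT and 5.58 ± 0.16 (SD, n = 4) in KO. The diets did not overlap in either genotype. The difference was -1.39 in WT (exact permutation test, two-sided, p = 0.00952, adjusted over 8 tests 0.019) and -1.39 in KO (exact p = 0.00303, the smallest possible, adjusted 0.0121). Without WT HFMCD replicate 1 or 2, the WT difference was -1.30 or -1.25, with an adjusted exact p of 0.0571. Between genotypes the ratio differed by -0.09 on chow (exact p = 0.757) and by -0.10 on HFMCD (exact p = 0.657), with overlapping livers.

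Tamm41 (chr6:115004381-115037876, minus strand) is the mitochondrial CDP-diacylglycerol synthase, which feeds cardiolipin rather than PI. It was also scarce. Its level on chow was 1.92 to 5.60 CPM for WT (median 3.14) and 2.49 to 3.82 CPM for KO (median 3.32). Under HFMCD, WT replicates gave 4.00, 5.35, 4.28 and 3.53 CPM and KO replicates 4.69, 4.82, 5.36 and 4.27 CPM. It rose in KO, where the diets did not overlap (log2 fold change 0.56, SE 0.21, adjusted p 0.0182). In WT the value was 0.40 (SE 0.21, adjusted p 0.108), with WT chow replicate 2 the highest of all 21 livers. Without that liver the WT value was 0.67 (adjusted p 0.00364), and without KO HFMCD replicate 3 the KO value was 0.51 (adjusted p 0.0542). Without KO chow replicates 1 and 7, the livers with gallbladder markers, the KO value was 0.47 (adjusted p 0.0621). The 2 diet effects were not shown to differ (adjusted p 0.916 for their difference).

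Cdipt (chr7:126975914-126980501, plus strand), the PI synthase itself, had a modest rise on HFMCD. In chow-fed mice the range was 37.3 to 43.4 CPM (median 39.8) for WT and 34.8 to 41.9 CPM (median 37.7) for KO. On HFMCD the WT livers had 47.5, 51.6, 50.3 and 45.5 CPM and the KO livers 44.4, 52.8, 46.1 and 41.4. The WT livers did not overlap between diets, and in KO the lowest HFMCD liver lay just below the highest chow liver. The log2 fold change was 0.28 (SE 0.07, adjusted p 2.07e-03) in WT and 0.29 (SE 0.07, adjusted p 1.01e-03) in KO, a ratio of 1.22 in both. Exons of Cdipt share 169 bases with Cdiptos on the other strand. Since no strand setting is given, their reads cannot be told apart there.

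The genes outside the pathway and marker lists that moved most like Cdipt were found from deviations of log2 CPM from the group means over the 21 livers. They were Gm10138 (Pearson r 0.83, at a very low mean level of 0.399 CPM), Apoa5 (0.83), Tmem115 (0.79), Mri1 (0.78) and Mrps23 (0.77). They are the top 5 of the genes tested outside these lists, and the livers share their library totals, so these values are a description only.

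Ddhd1 (chr14:45588467-45658143, minus strand) encodes a phospholipase A1 that prefers phosphatidic acid and can also cut PI to lysophosphatidylinositol. It had the largest KO value of the 10 genes on chow, without passing the test. WT livers on chow held 18.8 to 25.3 CPM (median 22.4), and KO livers 22.9 to 28.3 CPM (median 25.5), and the livers overlapped. The log2 fold change was 0.21 (SE 0.08, unadjusted p 0.0163, adjusted p 0.168). The HFMCD livers had 24.8, 22.9, 20.6 and 27.2 CPM in the WT group and 23.4, 21.5, 26.0 and 25.8 CPM in the KO group, a log2 fold change of 0.02 (SE 0.10, adjusted p 0.985). The diet difference was 0.10 in WT (adjusted p 0.356) and -0.09 in KO (adjusted p 0.371). The exons of Ddhd1 share 718 bases with Gm15601 on the other strand and 93 bases with Mir5131, a microRNA gene, on the same strand.

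**Figure D2:**
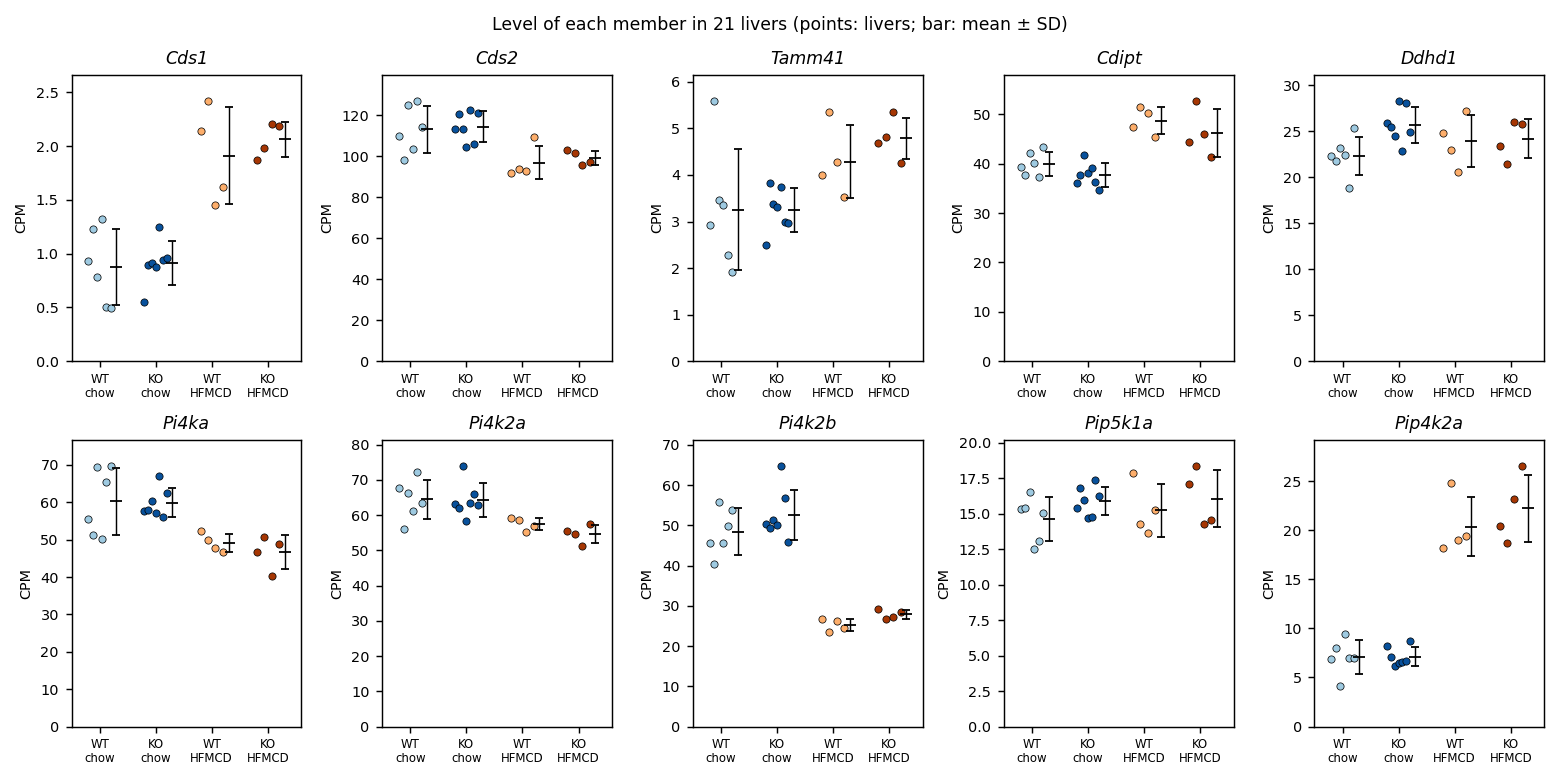
CPM of each of the 10 genes in every liver (points) by group, with the mean and SD beside them (bar). Pip4k2a and Cds1 are higher in all 8 HFMCD livers than in all 13 chow livers, Pi4k2b is lower in all 8, and WT and KO livers of the same diet overlap in every gene but Pi4k2b on HFMCD.

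Among the PI 4-kinases, Pi4k2b (chr5:52741574-52769340, plus strand), a type II kinase found partly in the cytosol, had the largest fall of the 10 genes. Its level on chow was 40.3 to 55.7 CPM for WT (median 47.7) and 45.9 to 64.8 CPM for KO (median 50.4). With HFMCD, values were 26.7, 23.5, 26.2 and 24.6 CPM in the WT livers and 29.1, 26.7, 27.2 and 28.5 CPM in the KO livers. All 8 HFMCD livers lay well below all 13 chow livers. The log2 fold change was -0.94 (SE 0.10, adjusted p 1.39e-08) in WT and -0.92 (SE 0.09, adjusted p 8.36e-09) in KO. It kept its call in each of the 19 alternative fits in WT and the 20 in KO.

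Its paralog Pi4k2a (chr19:42090470-42122087, plus strand), the type II kinase of the trans-Golgi network and endosomes, had only small differences. In chow-fed mice the range was 56.0 to 72.1 CPM (median 64.9) for WT and 58.3 to 73.9 CPM (median 63.1) for KO. Under HFMCD, WT replicates gave 59.1, 58.7, 55.3 and 57.0 CPM and KO replicates 55.5, 54.5, 51.3 and 57.5 CPM. The call was in KO, where the diets did not overlap (log2 fold change -0.23, SE 0.07, adjusted p 6.79e-03). The WT value was -0.16 (SE 0.07, adjusted p 0.0583), and the effects of the diet were not shown to differ between genotypes (adjusted p 0.891). Without a low-count filter the KO call was lost (adjusted p 0.0805), and with a filter of 1 CPM in 4 libraries the WT value passed (adjusted p 0.0311).

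The log2 ratio of Pi4k2a to Pi4k2b reads within a liver rose with the diet. It averaged 0.41 ± 0.14 (SD, n = 6) in WT and 0.29 ± 0.18 (SD, n = 7) in KO on chow. On HFMCD the WT livers had 1.15, 1.32, 1.08 and 1.21, and the KO livers 0.93, 1.03, 0.91 and 1.01. The difference between diets was 0.77 in WT (exact permutation test, two-sided, p = 0.00476, adjusted over 8 tests 0.0127) and 0.68 in KO (exact p = 0.00303, adjusted 0.0121), each the smallest p its groups allow. On HFMCD all 4 KO livers lay below all 4 WT livers. That difference was -0.22 (exact p = 0.0286, the smallest possible with 4 against 4, adjusted 0.0458). Without single livers it was -0.25 to -0.18. The adjusted exact p was then 0.0914 without any one of the KO HFMCD livers and 0.0571 without WT HFMCD replicate 1 or 2, and stayed at 0.0458 without WT HFMCD replicate 3 or 4. On chow the genotypes overlapped (-0.12, exact p = 0.206). By itself, Pi4k2b was higher in all 4 KO than in all 4 WT livers on HFMCD without being called (log2 fold change 0.14, adjusted p 0.699, edgeR). Such separation of the livers in that direction was seen in 4.96% of all genes tested.

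**Figure D3:**
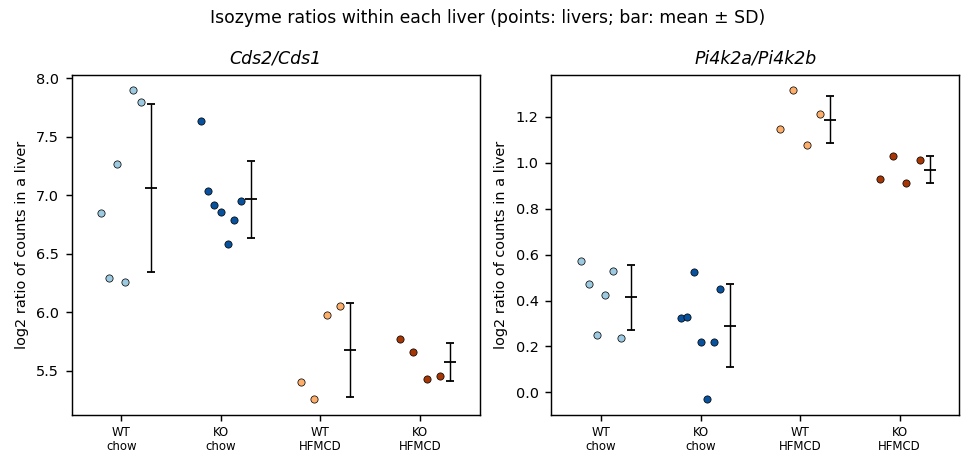
Log2 ratio of Cds2 to Cds1 reads (left) and of Pi4k2a to Pi4k2b reads (right) in every liver (points) by group, with the mean and SD (bar). Cds2 to Cds1 lies between 5.26 and 6.06 in the HFMCD livers and between 6.26 and 7.90 in the chow livers, and Pi4k2a to Pi4k2b is highest in the 4 WT HFMCD livers.

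Pi4ka (chr16:17280351-17406314, minus strand), the kinase that makes PI 4-phosphate at the plasma membrane, fell in both genotypes. WT livers on chow held 50.3 to 69.7 CPM (median 60.5), and KO livers 56.1 to 67.1 CPM (median 57.8). On HFMCD the WT livers had 52.2, 49.9, 47.9 and 46.6 CPM and the KO livers 46.8, 50.8, 40.3 and 48.9. The diets overlapped in WT and did not in KO. The log2 fold change was -0.29 (SE 0.10, adjusted p 9.92e-03) in WT and -0.36 (SE 0.09, adjusted p 1.59e-03) in KO. The WT call was lost without WT chow replicate 6 (-0.20, adjusted p 0.0548) and without the 4 chow livers with gallbladder markers (-0.21, adjusted p 0.0776). Exons of Pi4ka share 60 bases with Snap29 and 240 bases with Tmem191c on the other strand.

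At the last step, Pip5k1a (chr3:95058530-95106930, minus strand), which phosphorylates PI 4-phosphate to PI 4,5-bisphosphate, had values close to each other in all groups. Its level on chow was 12.5 to 16.5 CPM for WT (median 15.2) and 14.7 to 17.4 CPM for KO (median 16.0). The HFMCD livers had 17.9, 14.3, 13.6 and 15.3 CPM in the WT group and 17.1, 18.4, 14.3 and 14.6 CPM in the KO group. The groups overlapped in every comparison. The diet difference was 0.06 in WT (adjusted p 0.622) and 0.01 in KO (adjusted p 0.902), with 95% intervals of the HFMCD to chow ratio of 0.902 to 1.21 and of 0.878 to 1.16.

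Pip4k2a (chr2:18842255-18998126, minus strand), which makes PI 4,5-bisphosphate from PI 5-phosphate, had the largest rise of the 10 genes. In chow-fed mice the range was 4.14 to 9.39 CPM (median 6.98) for WT and 6.15 to 8.71 CPM (median 6.65) for KO. With HFMCD, values were 18.2, 24.8, 19.0 and 19.5 CPM in the WT livers and 20.4, 18.7, 23.2 and 26.5 CPM in the KO livers. The lowest HFMCD liver had nearly 2 times the CPM of the highest chow liver. The log2 fold change was 1.53 (SE 0.16, adjusted p 1.34e-08) in WT and 1.64 (SE 0.15, adjusted p 1.20e-09) in KO, ratios of 2.88 and 3.11. The call held in each of the 19 alternative fits in WT and the 20 in KO.

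Markers of several cell types other than hepatocytes moved with the diet as well. The 8 macrophage markers (Adgre1, Clec4f, Cd68, Cd5l, Vsig4, Ccr2, Trem2 and Lyz2) summed to 218 to 600.1 CPM over the WT chow livers and 323 to 452 over the KO chow livers. The sums were 1527 to 1789 CPM over the WT HFMCD livers and 1503 to 1969 over the KO HFMCD livers. Of these, 8 of 8 were called higher on HFMCD in WT and 7 of 8 in KO, and none was at 0 in a whole group. Median sums on HFMCD against chow in WT were 1271 against 251 CPM for 8 stellate cell and matrix markers, 64.1 against 19.5 for 7 lymphocyte markers, 16.4 against 3.76 for 4 neutrophil markers, 334.4 against 225 for 6 endothelial markers, 218 against 71.0 for 8 cholangiocyte markers, and 94798 against 105474 for 6 hepatocyte markers. In KO the stellate, lymphocyte and neutrophil sums were 1560 against 309, 62.7 against 21.6 and 18.3 against 2.94 CPM. Of the 7 lymphocyte markers, 5 were called higher and 1 lower on HFMCD in KO, and 5 higher and 0 lower in WT. The endothelial, cholangiocyte and hepatocyte sums in KO were 288 against 248, 593 against 72.6 and 88091 against 105203 CPM. For 6 erythroid markers the median sums were 46.9 against 21.1 CPM in WT and 43.6 against 37.4 in KO. The KO chow livers spread from 22.9 to 173 CPM. Of these markers, 1 of 5 tested was called higher in each genotype. The median log2 fold change of the 5 was -0.12 in WT and -1.51 in KO, opposite to the direction of the median sums. In whole liver, fewer cells of a type and less RNA per cell cannot be told apart. The part of these cells in the differences of Pip4k2a, Pi4k2b, Cds1 and the other genes was not tested.

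Within the groups, the relation to the macrophage sum was examined as the correlation of deviations from the group means over 21 livers, on log2 scales. For Pip4k2a, Pearson's r was 0.77 (permutation p = 0.0015, adjusted over 100 relations of 10 marker lists and 10 genes 0.082) and Spearman's rho 0.62 (permutation p = 0.0043, adjusted 0.21). The WT chow liver with the lowest macrophage sum, 218 CPM, also had the lowest Pip4k2a, 4.14 CPM, and the one with the highest, 600.1 CPM, had the highest, 9.39 CPM. Without the 2 livers farthest from the median of the macrophage deviations, r was 0.50. For Pi4ka, r was -0.74 (permutation p = 0.0071, adjusted 0.23) and rho -0.70 (permutation p = 0.014, adjusted 0.23), with r -0.59 without the 2 livers. None of the 100 relations passed after adjustment. Nor did any of the 45 pairs of the 10 genes, of which Cds1 with Tamm41 had the largest r, 0.77 (permutation p = 0.0017, adjusted 0.076; rho 0.60, permutation p = 0.018, adjusted 0.29; r 0.66 without the 2 livers farthest out). All these values share the library totals of the livers.

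**Figure D4:**
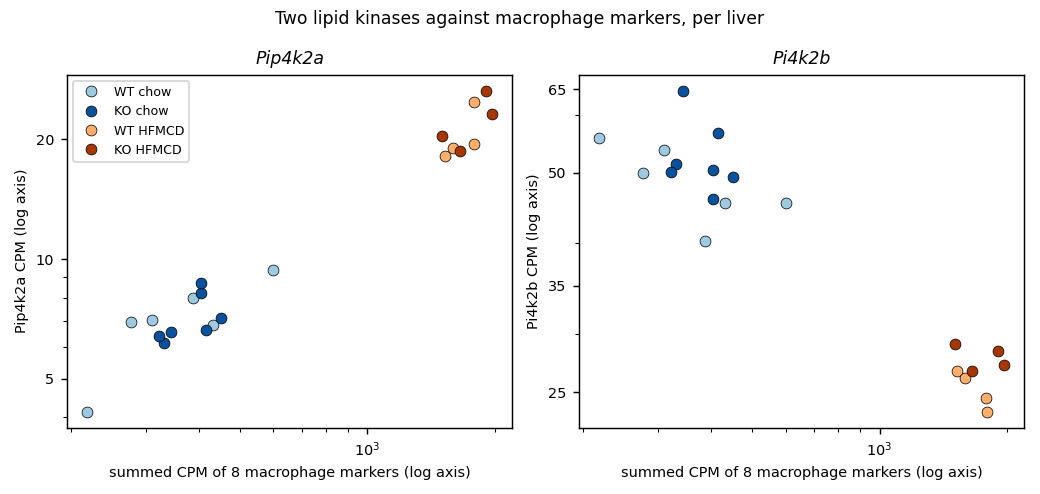
CPM of Pip4k2a (left) and Pi4k2b (right) against the summed CPM of 8 macrophage markers, 1 point per liver, on log axes. The 8 HFMCD livers (1503 to 1969 CPM of markers) form a cloud apart from the 13 chow livers (218 to 600.1 CPM), high for Pip4k2a and low for Pi4k2b.

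Levels were compared between genes per exonic kilobase, as RPKM (CPM divided by the exonic length in kilobases). On chow, Cdipt had the highest mean RPKM in both genotypes, 15.4 ± 0.93 (SD, n = 6) in WT and 14.6 ± 0.90 (SD, n = 7) in KO. Pi4k2b (12.9 and 14.0 RPKM), Cds2 (12.4 and 12.5) and Pi4kb (11.6 and 11.4), a Golgi PI 4-kinase outside the 10 genes, followed. Over the livers each of these 4 genes overlapped the one after it, but Pi4kb overlapped Pi4k2a in WT only. Pi4k2a stood at 9.63 and 9.60 RPKM, Pi4ka at 5.36 and 5.32, Pip5k1a at 3.34 and 3.63, Pip4k2a at 2.03 and 2.05, and Ddhd1 at 1.58 and 1.83. Tamm41 (0.617 and 0.615) and Cds1 (0.222 and 0.231) were the lowest of the 10 genes, and neither overlapped its neighbour.

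The order changed on HFMCD. Cdipt stayed first, with 18.8 ± 1.06 (SD, n = 4) RPKM in WT and 17.8 ± 1.86 (SD, n = 4) in KO, and no longer overlapped the second, Cds2 (10.6 and 10.9). Pi4k2b came sixth with 6.71 and 7.42 RPKM. Pip4k2a came to 5.86 and 6.39 RPKM, next to its paralog Pip4k2c at 5.92 and 6.63, with overlapping livers, and above Pip4k2b at 3.68 and 3.34. On chow it had been below both. Neither paralog was called for the diet: Pip4k2b had log2 fold changes of -0.03 in WT and -0.24 in KO (adjusted p 0.861 and 0.0656), and Pip4k2c of 0.03 and 0.10 (adjusted p 0.788 and 0.282).

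**Figure D5:**
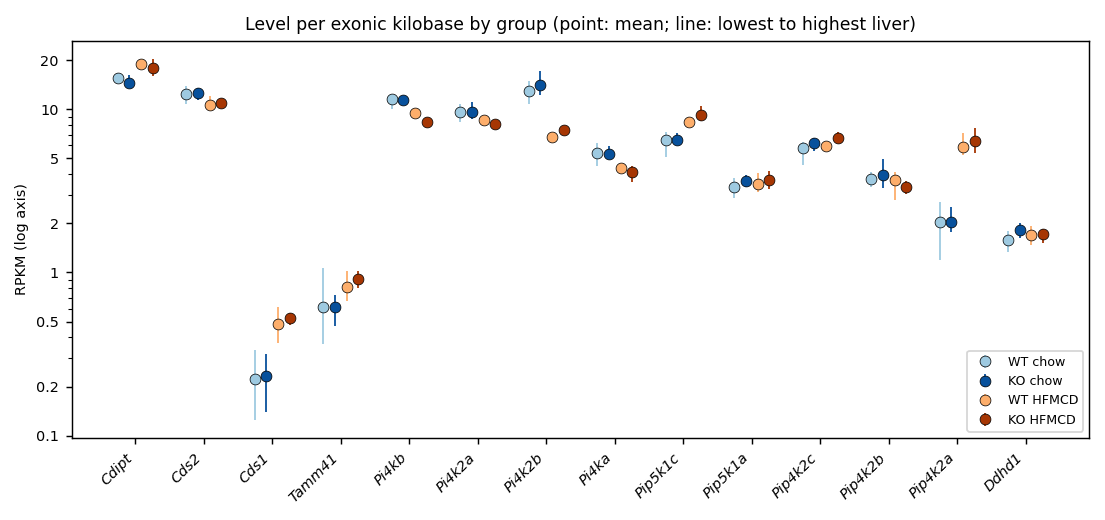
Mean RPKM (points) and the lowest to highest liver (lines) of 14 genes of the pathway by group, on a log axis. Pi4k2b falls from 12.9 to 6.71 RPKM in WT, Pip4k2a rises from 2.03 to 5.86 RPKM to the level of Pip4k2c, and Cds1 and Tamm41 stay lowest in every group.

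Genes around the 10 were read from 10 further lists of the pathway, 92 genes of which 84 were tested. In KO against WT on chow, 2 of 84 (2.38%) were called, against 2.17% of all genes tested. These were Synj2, a phosphoinositide 5-phosphatase (2.64 and 4.39 CPM in WT and KO, log2 fold change 0.74, SE 0.18, adjusted p 0.0336), and Ttc7b, a scaffold of the PI4KA complex (19.3 and 24.9 CPM, 0.37, SE 0.10, adjusted p 0.0495). The chow livers of the genotypes overlapped for both genes. On HFMCD, 0 of 84 were called by edgeR. For the diet, 50 of 84 (59.5%) were called in WT, 27 higher and 23 lower, and 55 of 84 (65.5%) in KO, 26 higher and 29 lower, against 62.5% and 69.7% of all genes tested. The medians of the log2 fold changes were -0.01 in WT and -0.02 in KO, and those of all genes tested -0.05 and -0.02.

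Of the other PI and PIP kinases, 5 of 7 were tested. Pi4kb fell (log2 fold change -0.28 in WT and -0.44 in KO) and Pip5k1c, another type I PIP kinase, rose (0.37 and 0.50). In KO, Pikfyve, which makes PI 3,5-bisphosphate, was also called lower (-0.28). Of the 6 genes of the PI4KA complex, 3 were called in WT and 2 in KO, against 62.5% and 69.7% of all genes tested. The paralogous scaffolds went opposite ways: Ttc7 rose (0.86 and 0.94) and Ttc7b fell (-0.31 and -1.06). Ttc7 went from 28.1 to 50.8 CPM in WT and Ttc7b from 19.3 to 15.5 CPM. Efr3b, of the membrane anchor family of that complex, was called higher in WT (1.13, adjusted p 0.0346) at a low level, 0.634 to 1.40 CPM.

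Of the 14 PI 3-kinase genes, 6 were called higher and 3 lower in WT, and 5 higher and 2 lower in KO. Over all genes tested, 29% were called higher and 33.6% lower in WT, and 33.7% higher and 36% lower in KO. None of the lists was tested against these shares. The largest rises were those of Pik3cg, the gamma catalytic subunit of leukocytes (1.02 to 7.77 CPM in WT, log2 fold change 2.92 and 2.90), and Pik3r5, its regulatory partner (2.48 to 12.5 CPM, 2.32 and 2.63). Pik3cb, the beta catalytic subunit, rose by 0.53 and 0.62. Of the 24 phosphoinositide phosphatases, 10 were called higher and 4 lower in WT, and 11 and 7 in KO. Inpp5d, the 5-phosphatase SHIP1 of blood cells, rose by 1.72 and 1.80, and Inpp4a, a 4-phosphatase, fell by 1.20 and 1.56 on the log2 scale. Synj2, which was also higher in KO on chow, rose from 2.64 to 9.80 CPM in WT (1.89 and 1.39), and Fig4, a PI 3,5-bisphosphate 5-phosphatase, rose from 11.3 to 18.6 CPM in WT (0.71 and 1.06). Among 10 tested phospholipases C, 3 were called in each direction in WT, and 4 higher and 3 lower in KO. Plcg2, the isoform of haematopoietic cells, went from 2.10 to 11.2 CPM in WT (2.42 and 2.30). Plcb2 also rose (1.09 and 0.63), while Plcb3 (-0.33 and -0.40) and Plcg1 (-0.25 and -0.50) fell. Plch1 was called higher in KO at a very low level, 0.0605 to 0.509 CPM. The macrophage and lymphocyte marker sums given above moved in the same comparisons, and their part in these rises was not tested.

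Upstream of the 10 genes, diacylglycerol kinases make phosphatidic acid. Of 6 tested, 1 was called higher and 3 lower in WT, and 0 higher and 3 lower in KO. Over all genes tested, the shares called higher and lower were 29% and 33.6% in WT, and 33.7% and 36% in KO. Dgkq went from 43.3 to 15.4 CPM in WT (log2 fold change -1.49, and -1.98 in KO), and Dgkh from 13.1 to 4.35 CPM (-1.59 and -1.30). Dgka fell by 0.90 and 1.01 on the log2 scale. For inositol supply, 2 of 6 genes were called higher and 2 lower in WT, and 3 and 3 in KO. Impa1, the inositol monophosphatase, fell (-0.43 and -0.50). Isyna1, the inositol 3-phosphate synthase, rose in both genotypes (0.49 and 0.37), and Slc2a13, a proton-coupled inositol transporter, rose from 0.250 to 1.17 CPM in WT (2.19 and 2.71). Miox, an oxygenase that breaks down inositol, was called higher in KO at a very low level (0.0646 to 0.545 CPM).

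Of the 7 PI transfer proteins, 2 were called higher and 3 lower in WT, and 1 higher and 4 lower in KO. Over all genes tested, 29% were called higher and 33.6% lower in WT, and 33.7% and 36% in KO. Pitpna, which carries PI between membranes, rose (0.54 and 0.65), while Pitpnm2 (-1.20 and -1.30) and C2cd2l (-0.91 and -1.07), which act at contacts of the endoplasmic reticulum with the plasma membrane, fell. In the cardiolipin branch that Tamm41 feeds, 2 of 4 genes were called lower in WT and 3 of 4 in KO, with none higher. Of all genes tested, 33.6% and 36% were called lower, and a list of 4 genes is too short to be set apart from that share. Taz (tafazzin), which remodels cardiolipin, had the largest fall (44.1 to 22.4 CPM in WT, -0.98 and -1.38), and Crls1, cardiolipin synthase, had -0.27 and -0.29. Pgs1, which makes phosphatidylglycerol phosphate, fell in KO (-0.32). Ddhd2, of the same phospholipase family as Ddhd1, fell from 39.0 to 18.5 CPM in WT (-1.08 and -0.87), while Ddhd1 itself was not called.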

How the data were processed

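Read counts per gene symbol were deposited by the authors as raw counts for 21 livers, with no normalization recorded. The submitters' processing notes name GRCm38 as build and, as tools without stated roles, featureCounts 1.6.1, STAR 2.6.1d and CASAVA 2.17; the annotation and the strand setting are not given in the sources used here. Counts were tested with edgeR 4.0.16 in R 4.3.3: filterByExpr over the 4 groups (15677 genes), TMM scaling, 1 robust quasi-likelihood model with 4 group means over all 21 libraries, 5 contrasts, two-sided, Benjamini-Hochberg over all genes, threshold 0.05. CPM was relative to each library's TMM-adjusted total over the genes tested, log2 CPM a prior count of 2, and RPKM the union exon length of GENCODE M21, whose GRCm38 positions are printed. Intervals are 95%. Ratios used an offset of 0.5 and exact permutation tests; correlations used 100000 permutations within groups and were chosen after seeing the data. Alternatives were RLE and upper-quartile scaling, no filter, 1 CPM in 4 libraries, DESeq2 1.42.0, limma-voom (limma 3.58.1) with quality weights, the compared groups only, and fits without single livers, without KO chow replicates 1 and 7, and without the 4 chow livers rich in Dmbt1. The members, the pathway and marker lists, the tests and the alternatives were chosen with earlier results of these data known. All 10 members are named; of each other list, called genes with the smallest p are named, up to 3 per comparison. Totals were 17502231 to 25822972 counts per library; reads were not reduced to molecules. No 2 libraries were identical.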

Additional observations from a re-analysis of the deposited data

Results flagged for a closer look

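Of 52 sets of values of 4 to 7 livers checked for a liver standing apart by Dixon's criterion, 1 was marked, where chance marks about 1 in 20. Cds2 in WT HFMCD replicate 4 was at 109.188 CPM, far from the nearest of the other three livers of the group at 93.507 CPM; the gap was 0.903 of the group's range. Without that liver, the log2 fold change of Cds2 for HFMCD against chow in WT was -0.28 (edgeR adjusted p 0.00745), against -0.22 with it.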

How the results depend on the processing

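No paired analysis was possible because the labels give animal numbers that do not recur across the groups. Of 1070 alternative values of the 10 genes' log2 fold changes, 966 kept their sign, among them every called value. The members called numbered 0 for both KO comparisons and for their difference in every alternative, 4 to 7 for the diet in WT and 6 to 8 in KO. Leaving out a liver gave -0.25 to -0.18 for the log2 ratio of Pi4k2a to Pi4k2b in KO against WT on HFMCD, and -1.55 to -1.22 for the ratio of Cds2 to Cds1 in HFMCD against chow in WT. Counts over all genes moved more. For KO against WT on HFMCD, 50 genes became 32 with RLE, 28 with upper-quartile scaling, 28 without a filter, 193 with DESeq2, 2.05% of 15677 with limma-voom, 296 with the compared groups only, 141 without KO chow replicates 1 and 7, 175 without the 4 livers rich in Dmbt1, and 1 to 16 without single livers. For KO against WT on chow, 340 became 705 with DESeq2, 113 with limma-voom, 2 with the compared groups only, 144 and 189 without those livers, and 49 to 611 without single livers. For the difference of the KO effect, 0 became 5 without a filter, 97 with DESeq2, 10 with limma-voom, 84 and 62 without those livers, and 0 to 8 without single livers. Cause was not tested. Depth limits Cds1 and Tamm41 most, at 10 to 62 and 39 to 148 reads per liver.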
